A study of Homo sapiens with 6 samples.

Results

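The genes described here are 10 targets of the hypoxia-inducible factors (HIF) that lie outside glycolysis: EGLN1, EGLN3, CA9, CA12, VEGFA, ADM, ANGPTL4, BNIP3, NDRG1 and P4HA1. They were chosen by symbol and matched to 10 of the 60612 Ensembl gene identifiers in the count files. All 10 were among the 17854 genes that passed the filter on low counts, and each held at least 59 counts in every library.

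Cells sense oxygen through HIF, a pair of DNA-binding proteins made of an alpha subunit (HIF1A, EPAS1 or HIF3A) and a beta subunit (ARNT or ARNT2). When oxygen is present, the EGLN prolyl hydroxylases mark the alpha subunit, VHL binds it and it is degraded, so that HIF activity is set largely at the protein level and not at the level of its messenger RNA. When oxygen is short, HIF accumulates and raises genes for pH control, blood vessel growth, mitochondrial turnover and matrix synthesis, and in breast tumours CA9 and VEGFA are widely used as signs of hypoxia. EGLN1 and EGLN3 are themselves HIF targets and act as a brake on the response.

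RNA sequencing was done on SKBR3, an established HER2-positive breast cancer line of mammary epithelial type. One group of 3 libraries came from SKBR3 cells with no treatment (parental), and the other 3 from SKBR3 cells given trastuzumab, an antibody to HER2, at rising concentrations during 30 weeks (trastuzumab). The labels do not say whether the drug was present at harvest, at which oxygen tension or density the cells grew, whether the trastuzumab cells were 1 clone or a pool, or whether replicates were separate cultures, so the p-values measure the spread between these libraries, which may be technical. The comparison asks how the hypoxia response genes differ between the 2 groups.

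Libraries held 71015138 to 82857810 counts. Levels are in CPM (counts scaled to library size), a level with ± is a mean and SD over the 3 libraries of a group, differences are log2 fold changes of trastuzumab minus parental with their standard error (SE), and a gene is called changed at an edgeR adjusted p below 0.05. By that rule 49.3% of all tested genes changed, 23.9% higher and 25.4% lower, and the 2 groups did not overlap in 57.5% of genes. All 6 luminal epithelial markers (EPCAM, KRT8, KRT18, KRT19, ERBB2, GATA3) were present, with summed levels of 18085 to 19829 CPM in parental and 20843 to 22416 CPM in trastuzumab libraries. ERBB2 (7925 ± 317 and 11050 ± 249 CPM) and KRT19 (2844 ± 151 and 3289 ± 194 CPM) were called higher, EPCAM and KRT8 lower. With the correction given below, 1 of the 6 was called higher (ERBB2) and 4 lower. KRT19 was then among the lower ones, turning from 0.21 to -0.21 (corrected edgeR adjusted p = 2.99e-05). Summed levels were 28.5 to 31.7 and 79.0 to 86 CPM for 5 endothelial markers, 9.20 to 19.2 and 6.07 to 10.9 CPM for 6 fibroblast markers, and 14.8 to 17.3 and 42.7 to 49.1 CPM for 6 immune markers. The higher endothelial and immune sums came from CDH5 (26.4 ± 1.25 and 79.3 ± 3.70 CPM) and CD68 (14.8 ± 1.48 and 43.0 ± 3.37 CPM), while the defining markers PECAM1, CD3E and PTPRC stood at or below 0.31 CPM in every library. Fold changes followed base composition: in 5 quintiles of transcript GC content, the median log2 fold change of protein-coding genes went from -0.49 in the lowest to 0.36 in the highest. A second fit therefore removed the trend on GC content and exonic length from each library. This corrected fit, which called 38.9% of genes, also removes any real change tied to these properties, and whether the trend is technical was not tested.

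HIF binds the core motifs ACGTG and GCGTG, and the sequences around these letters are shown because they are what the promoters of HIF targets can have in common. RefSeq promoter windows (GRCh38.p14, 250 bases before to 50 after the gene start) matched 8 of the 10 genes, all but VEGFA and NDRG1. In the lines that follow, capitals mark the core as read on the gene's own strand, 5′ to 3′, so that CACGT and CACGC are the 2 cores on the opposite strand.
CA9, chr9:35673898-35673926, plus strand: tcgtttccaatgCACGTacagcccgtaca
EGLN1, chr1:231422288-231422312, minus strand: gggccgtggtgtACGTGcagagcgc
P4HA1, chr10:73096936-73096964, minus strand: tgtgatcgagctCACGTagcgagggctgc
ANGPTL4, chr19:8363909-8363937, plus strand: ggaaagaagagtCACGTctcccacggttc
BNIP3, chr10:131982040-131982068, minus strand: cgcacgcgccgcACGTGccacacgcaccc
ADM, chr11:10304960-10304988, plus strand: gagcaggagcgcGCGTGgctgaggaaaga
CA12, chr15:63382064-63382092, minus strand: gcggatctcaccCACGCctgccagcagct

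A core on either strand lay in 7 of the 8 windows, against 48.4% of 35116 RefSeq windows. ACGTG was found in 5 (21.4% of all windows) and GCGTG in 3 (36.5%), with BNIP3 holding both, and a match to CACGTG counts on both strands. The printed core began 13 bases before the RefSeq gene start in EGLN1, 18 in CA9, 86 in P4HA1 and 234 in both ANGPTL4 and CA12. RefSeq starts differ from the ends of the GENCODE gene spans given below, which cover all annotated transcripts of a gene, and in 6 of the 7 genes, all but BNIP3, the printed core lies inside that span. One core is printed per gene: BNIP3 held 6 matches in all, and CA12 a second core 39 bases after its RefSeq start. The EGLN3 window held neither motif. Among the 7 genes with a core, the uncorrected fit called 2 higher (CA12, ANGPTL4) and 2 lower (EGLN1, P4HA1), and 3 did not pass the test. Of all tested genes, 23.9% were called higher and 25.4% lower. In the corrected fit CA12 and ANGPTL4 stayed higher, EGLN1 and P4HA1 were not called, and CA9 and BNIP3 were called lower. That fit called 18.6% of all genes higher and 20.3% lower. A match is a description of the sequence and not a measured binding site.

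Of the 10 genes, 4 were higher in the trastuzumab libraries (ANGPTL4, EGLN3, NDRG1, CA12), 2 were lower (EGLN1, P4HA1) and 4 did not pass the test (CA9, VEGFA, ADM, BNIP3). Their median log2 fold change was 0.079, against -0.0057 over all tested genes. The 6 calls stand beside the 49.3% of all genes called, a like share. In 8 of the 10 the groups did not overlap, against 57.5% of all genes. Among the 10, only ANGPTL4 rose at least 2-fold, as did 3.85% of all genes, while 7.78% changed at least 2-fold in either direction. In the corrected fit ANGPTL4, EGLN3, NDRG1 and CA12 stayed higher, CA9 and BNIP3 were called lower (18.6% of all genes were called higher and 20.3% lower there), and the 2 falls were lost, EGLN1 standing at 0.038 and P4HA1 at 0.077.

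**Figure D1:**
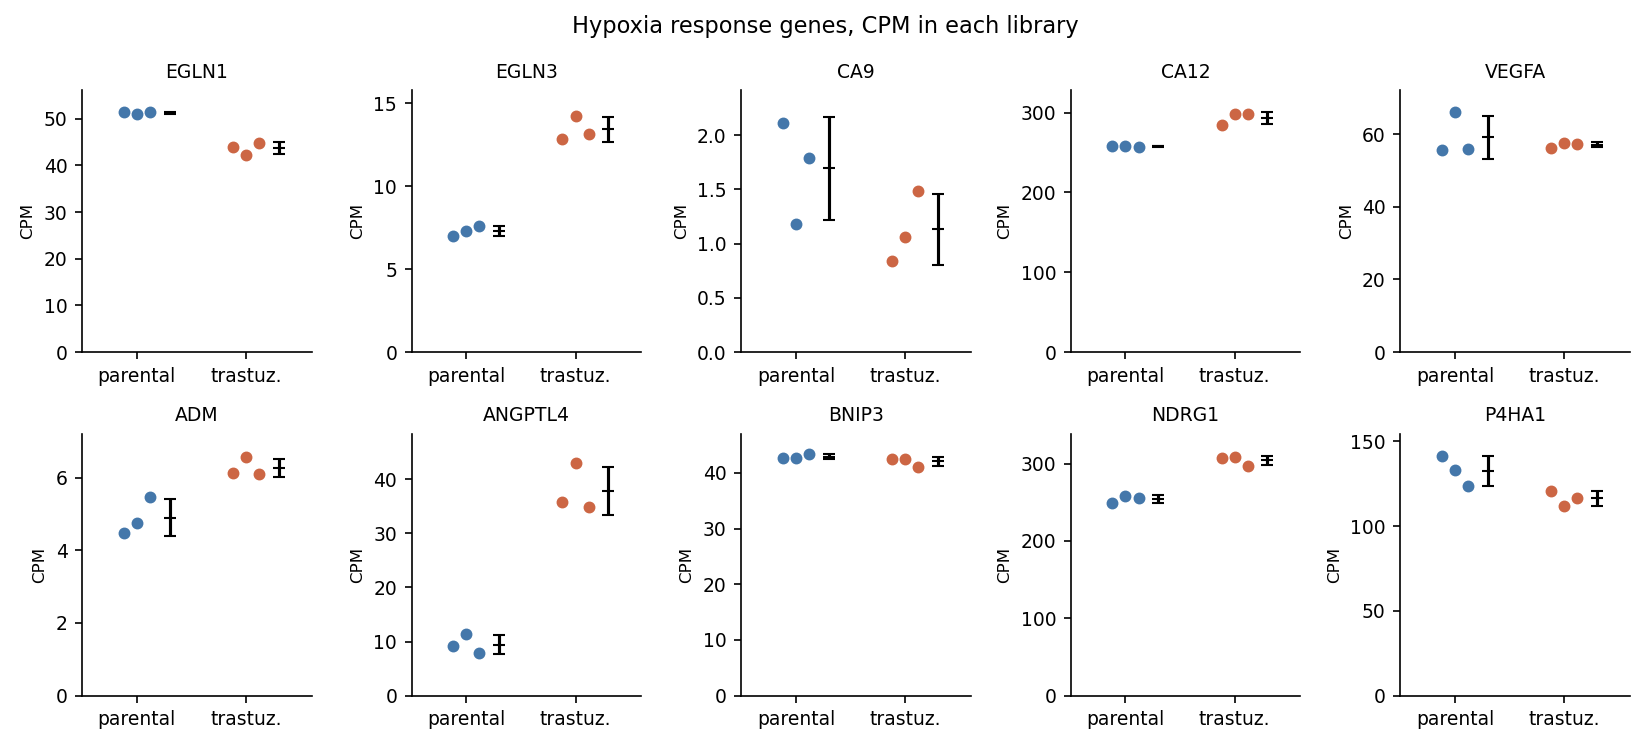
CPM of each of the 10 genes in the 3 parental (blue) and 3 trastuzumab (orange) libraries, each axis starting at 0, with the mean and SD as black bars. ANGPTL4 and EGLN3 stand clearly apart between the groups, the shifts of CA12, NDRG1, EGLN1 and P4HA1 are small against their level, and CA9 and VEGFA overlap.

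EGLN3 rose in both fits, whereas EGLN1 was called lower in the uncorrected fit and not in the corrected one. EGLN3 (PHD3, ENSG00000129521, chr14:33924231-34462774), the HIF prolyl hydroxylase most strongly raised by hypoxia in many cells, stood at 7.02, 7.29 and 7.61 CPM in the parental and 12.9, 14.3 and 13.2 CPM in the trastuzumab libraries. Every trastuzumab library lay above every parental one, and EGLN3 rose 1.84-fold (0.88 ± 0.11 SE, adjusted p = 4.61e-06). The corrected value was 0.92. The annotated span of EGLN3 overlaps SPTSSA on the same strand, which went the other way (107 to 73.2 CPM).

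EGLN1 (PHD2, ENSG00000135766, chr1:231363751-231425044), the main oxygen sensor in most cells, stood at 51.4, 51.0 and 51.4 CPM in the parental and 44.1, 42.3 and 44.8 CPM in the trastuzumab libraries. The groups did not overlap and the parental libraries were nearly identical. EGLN1 fell by 0.23 on the log2 scale (SE 0.061, adjusted p = 0.0045), a call that ended in the corrected fit, where it stood at 0.038 (adjusted p = 0.62). Per length, the FPKM ratio of EGLN3 to EGLN1 was 0.0994, 0.104 and 0.108 in parental and 0.213, 0.247 and 0.215 in trastuzumab libraries. EGLN1 thus remained the more abundant of the pair in every library. In all, 5 such ratios within families were compared. The exact two-sided permutation p for this one was 0.1 (0.125 adjusted over the 5), the smallest that 3 against 3 libraries can give.

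Both membrane-bound carbonic anhydrases hydrate carbon dioxide outside the cell and so help tumour cells to export acid, but they differed widely in level. CA12 (ENSG00000074410, chr15:63321378-63382161) was abundant, at 258, 258 and 257 CPM in the parental and 285, 298 and 298 CPM in the trastuzumab libraries. It rose 1.14-fold with no overlap (0.19 ± 0.042 SE, edgeR adjusted p = 0.00131), and the corrected value was also 0.19.

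CA9 (ENSG00000107159, chr9:35673856-35681159), the classical marker of tumour hypoxia, was the member with the lowest level in CPM. Parental libraries held 156, 87 and 130 counts, against 59, 86 and 119 in the trastuzumab libraries, or 2.11, 1.18 and 1.79 against 0.842, 1.07 and 1.48 CPM. The groups overlapped and the log2 fold change was -0.58 ± 0.31 SE (adjusted p = 0.142). With the correction the value was -1.01 (adjusted p = 0.0184). Between 28.1 and 50.6 FPKM of CA12 were measured per FPKM of CA9 in parental libraries and between 46.8 and 79.6 in trastuzumab libraries, and these ranges overlapped (exact permutation p = 0.2, also 0.2 adjusted).

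Among the secreted products, ANGPTL4 stood out from the 2 vascular factors. ANGPTL4 (ENSG00000167772, chr19:8363289-8374373), an inhibitor of lipoprotein lipase that is a target of the PPAR nuclear receptors as well as of HIF, went from 9.19, 11.3 and 7.83 CPM to 35.7, 43.0 and 34.9 CPM. The lowest trastuzumab library was far above the highest parental one. The rise was 4.01-fold (2.0 ± 0.13 SE, adjusted p = 1.38e-07; corrected value 1.58), which placed it at rank 269 of all tested genes by size of rise.

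VEGFA (ENSG00000112715, chr6:43770184-43786487), the main growth factor for blood vessels, stood at 55.7, 66.0 and 55.8 CPM in the parental and 56.2, 57.5 and 57.4 CPM in the trastuzumab libraries. Parental replicate 2 was the highest of the 6 and the other libraries lay close together. The log2 fold change was -0.054 ± 0.068 SE (adjusted p = 0.565), and 0.032 without that library. ADM (ENSG00000148926, chr11:10304680-10307397), which encodes the vasodilator peptide adrenomedullin, stood at 4.48, 4.74 and 5.47 CPM in the parental and 6.14, 6.56 and 6.11 CPM in the trastuzumab libraries. These groups did not overlap, yet the log2 fold change of 0.36 ± 0.15 SE just missed the threshold (adjusted p = 0.0551). ADM passed without parental replicate 3 (0.44, adjusted p = 0.031) and with 6 other settings, and stood at -0.012 in the corrected fit (adjusted p = 0.959).

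Of the intracellular targets, NDRG1 rose, P4HA1 fell in the uncorrected fit and BNIP3 did not pass the test. NDRG1 (ENSG00000104419, chr8:133237171-133302022), a stress-induced protein linked to differentiation and vesicle traffic, was at 249, 258 and 256 CPM in the parental and 307, 308 and 297 CPM in the trastuzumab libraries. The groups did not overlap, and the rise was 1.20-fold (0.26 ± 0.042 SE, adjusted p = 7.05e-05; corrected value 0.25). BNIP3 (ENSG00000176171, chr10:131966455-131982013), a mitochondrial receptor that marks the organelle for autophagy, was at 42.64, 42.58 and 43.38 CPM in the parental and 42.57, 42.51 and 41.05 CPM in the trastuzumab libraries. The groups were separated by less than the spread within either of them, and the log2 fold change was -0.028 ± 0.063 SE (adjusted p = 0.756). The corrected fit called BNIP3 lower, at -0.14 (adjusted p = 0.047).

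P4HA1 (ENSG00000122884, chr10:73007217-73096974), the catalytic subunit of a collagen prolyl hydroxylase, stood at 141, 133 and 124 CPM in the parental and 121, 112 and 116 CPM in the trastuzumab libraries. The lowest parental library was just above the highest trastuzumab one, and P4HA1 fell by 0.19 on the log2 scale (SE 0.055, adjusted p = 0.00846). The call ended without parental replicate 1 (adjusted p = 0.0546) or trastuzumab replicate 2 (0.0506). It also turned in direction with the correction for GC content alone, where P4HA1 was called higher (0.16, adjusted p = 0.00445).

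**Figure D2:**
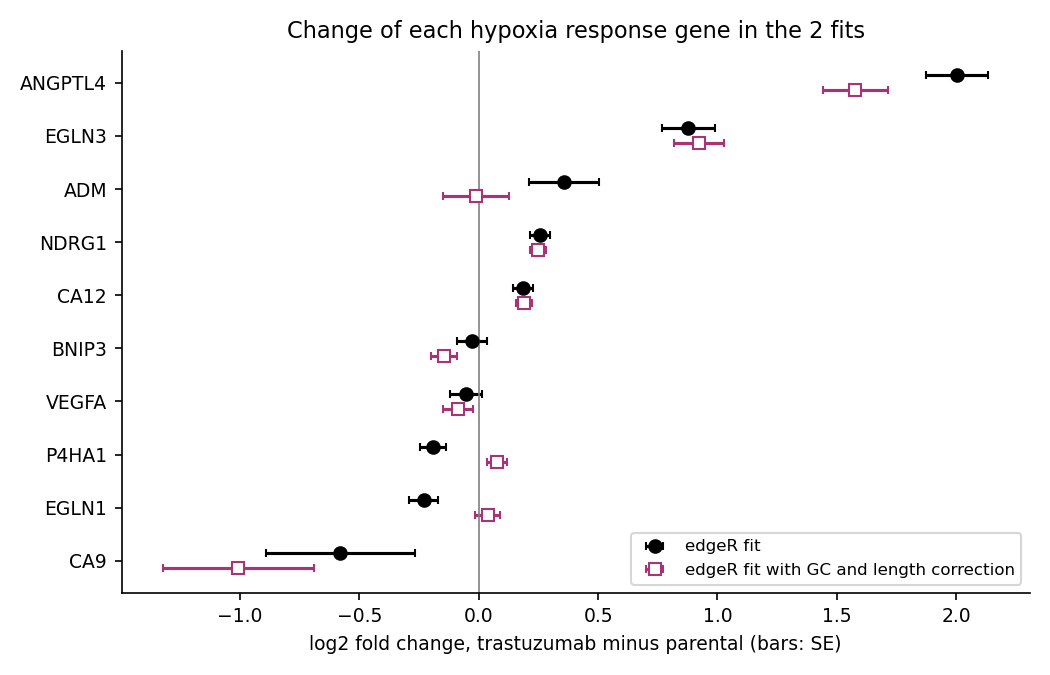
Log2 fold change (trastuzumab minus parental, x axis) with its SE for each of the 10 genes in the edgeR fit (black circles) and in the fit corrected for GC content and length (open squares). ANGPTL4, EGLN3, NDRG1 and CA12 lie to the right of 0 in both, while ADM, EGLN1 and P4HA1 cross 0 with the correction.

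The correction is computed from GC content and exonic length, so its size went with base composition by construction. CA9, ADM and ANGPTL4, with GC contents of 60.1, 58.5 and 63.3%, lay in the quintile of highest GC content, and their values fell by 0.37 to 0.43 on the log2 scale with the correction. P4HA1 (40.8%) lay in the lowest quintile and EGLN1 (44.2%) in the next, and theirs rose by 0.27. CA12, EGLN3, NDRG1, VEGFA and BNIP3, at 49.4 to 54.7%, moved by at most 0.12.

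Per length, the 10 genes covered a wide range. By the deposited FPKM values the parental order began with P4HA1 (38.6 ± 2.92 SD, n = 3), CA12 (33.2 ± 0.400) and NDRG1 (19.1 ± 0.359), followed by EGLN1 (8.57 ± 0.0802) and BNIP3 (7.25 ± 0.010). VEGFA (3.69 ± 0.388) and ANGPTL4 (3.43 ± 0.658) came next and did not differ beyond their spread, and ADM (1.88 ± 0.180), CA9 (0.943 ± 0.267) and EGLN3 (0.89 ± 0.030) were lowest, the last pair again within their spread. In trastuzumab libraries CA12 (36.0 ± 0.854) stood above P4HA1 (32.3 ± 1.37), and ANGPTL4 moved from rank 7 to rank 4 (13.1 ± 1.53). EGLN3 (1.56 ± 0.085) there stood above CA9 (0.597 ± 0.172).

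The HIF machinery itself was also sequenced. Of its 16 genes, all tested, 3 rose, 5 fell and 8 did not pass (median 0.016), against 23.9% and 25.4% of all genes. HIF1A (ENSG00000100644, chr14:61695513-61748259), the oxygen-labile subunit best known for the acute response, went from 114, 106 and 98.1 CPM in the parental to 47.4, 38.7 and 43.0 CPM in the trastuzumab libraries. No library of one group came near the other, and HIF1A messenger RNA fell by 1.30 on the log2 scale (SE 0.075, adjusted p = 5.39e-09; corrected value -0.86). EPAS1, which encodes the other main alpha subunit HIF-2α, stood at 490, 509 and 510 CPM in the parental and 522, 526 and 533 CPM in the trastuzumab libraries. The difference of 0.067 ± 0.040 SE did not pass (adjusted p = 0.185; corrected value -0.021). Per length, EPAS1 was at 62.2 ± 1.14 FPKM in parental and 62.1 ± 0.571 FPKM in trastuzumab libraries, and HIF1A at 18.5 ± 1.58 and 7.17 ± 0.745 FPKM (SD, n = 3). HIF3A held 0 to 0.374 CPM.

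The shared partner ARNT fell from 64.6 ± 1.90 to 51.0 ± 0.632 CPM (adjusted p = 8.04e-05), and its relative ARNT2 stood near 1 CPM in both groups (1.05 and 0.983). VHL, the ubiquitin ligase subunit that recognises hydroxylated HIF, was at 56.4 ± 0.871 and 57.3 ± 1.69 CPM (0.022 ± 0.057 SE, adjusted p = 0.794). Of the proteins of its ligase complex, CUL2, the scaffold, fell (-0.65, adjusted p = 4.39e-05), ELOC rose (0.25, adjusted p = 0.000209), ELOB rose in the uncorrected fit (0.30) but was called lower with the correction (-0.15, adjusted p = 0.00873), and RBX1 stood at 0.011 (adjusted p = 0.922) but was called higher with the correction (0.20, adjusted p = 0.0186). The coactivators EP300 (-0.40, adjusted p = 1.52e-06) and CREBBP (-0.27, adjusted p = 0.000188) fell. CITED2, which competes with HIF for them, stood at -0.061 (adjusted p = 0.389). P4HTM, a membrane-bound prolyl hydroxylase, rose from 37.1 ± 1.49 to 51.0 ± 0.992 CPM (0.46, adjusted p = 1.47e-05). The corrected value was 0.23, and the call ended with GC correction alone (0.12, adjusted p = 0.0939). WDR6, which overlaps P4HTM on the same strand, also rose, from 142 to 187 CPM (0.39, adjusted p = 9.11e-06). HIF1AN, the asparaginyl hydroxylase, stood at 0.042 (adjusted p = 0.624), and at 0.31 when corrected (adjusted p = 0.000518).

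EGLN2 (PHD1, ENSG00000269858, chr19:40798996-40808433) showed an irregular count in 1 library. Parental libraries held 11619, 3464 and 11733 EGLN2 counts, against 20678, 23153 and 23310 in the trastuzumab libraries. With parental replicate 2 so low the difference did not pass (1.26 ± 0.53 SE, adjusted p = 0.132). RAB4B-EGLN2, a readthrough gene that shares exons with EGLN2, held 3, 9491 and 8 counts in parental libraries, against 16, 4202 and 2319 in the trastuzumab libraries. Added together, the 2 genes held 157, 176 and 161 CPM in the parental and 295, 339 and 320 CPM in the trastuzumab libraries. The groups did not overlap before or after the addition, while the SD over the parental libraries went from 64.8 to 9.84 CPM. The summed counts gave a rise of 1.93-fold (0.95 ± 0.056 SE, adjusted p = 1.56e-09). EGLN2 alone also passed without parental replicate 2 (0.87, adjusted p = 9.33e-09). With all libraries, EGLN2 alone also passed in DESeq2 (adjusted p = 0.0331), limma-voom (0.00235) and both filtered FPKM fits (0.0206 and 0.0349). The addition was chosen after these counts were seen.

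**Figure D3:**
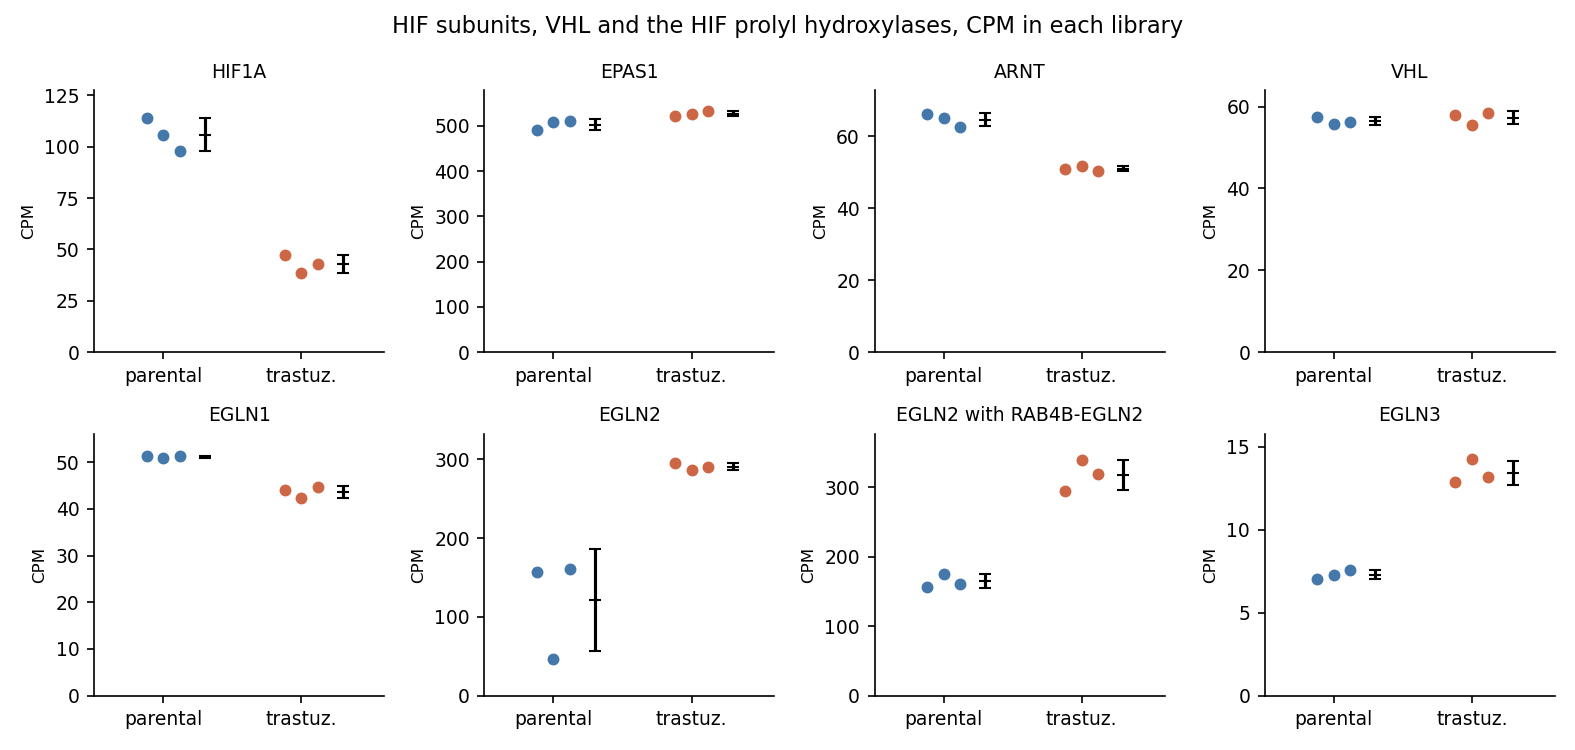
CPM in the 3 parental (blue) and 3 trastuzumab (orange) libraries for HIF1A, EPAS1, ARNT, VHL and the prolyl hydroxylases EGLN1 to EGLN3, with mean and SD as black bars and each axis starting at 0. HIF1A falls, EPAS1 and VHL did not pass the test, and parental replicate 2 is low for EGLN2 but not once the counts of RAB4B-EGLN2 are added.

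Other HIF targets outside glycolysis held calls in both directions. Of 28 listed genes 25 were tested: the test called 9 lower and 4 higher and left 12 uncalled (median -0.17). Of all tested genes, 25.4% were called lower and 23.9% higher. The corrected fit called 8 in each direction (median 0.042), against 20.3% of all genes lower and 18.6% higher. The same shares stand beside the counts of every list that follows. HILPDA, a lipid droplet protein that inhibits lipolysis, rose from 96.4 ± 3.17 to 180 ± 8.43 CPM (adjusted p = 6.79e-10). The secreted glycoproteins STC2 (5.29 ± 1.26 to 2.21 ± 0.106 CPM, adjusted p = 6.11e-05) and STC1 (1.67 ± 0.607 to 0.824 ± 0.196 CPM, adjusted p = 0.0188) fell. The call of STC1 ended without parental replicate 3 (0.128), trastuzumab replicate 1 (0.0588) or trastuzumab replicate 2 (0.0781), and in the corrected fit (0.0609).

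Among 20 glycolytic HIF targets, the test called 6 higher and 5 lower and left 9 uncalled (median 0.0099), and 3 and 9 were called higher and lower with the correction (median -0.14). PFKFB3, which makes the activator of phosphofructokinase, rose from 61.7 ± 2.68 to 111 ± 7.39 CPM (adjusted p = 7.05e-09), and its relative PFKFB4 fell from 12 ± 0.462 to 7.79 ± 0.349 CPM (adjusted p = 0.00018). SLC2A3, a high-affinity glucose transporter, went down from 2.32 ± 0.190 to 0.495 ± 0.0648 CPM (adjusted p = 5.99e-06). PDK1, which restrains pyruvate oxidation, fell from 18.7 ± 0.622 to 11.6 ± 1.14 CPM (adjusted p = 2.08e-05), a call that ended with the correction (-0.14, adjusted p = 0.299).

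Around the carbonic anhydrases, 6 of 13 other family members were tested, of which 2 fell and 4 did not pass. CA2 and CA13, both cytosolic, fell from 1.04 ± 0.102 to 0.286 ± 0.206 CPM and from 1.21 ± 0.431 to 0.328 ± 0.0248 CPM (adjusted p = 0.0066 and 0.000889). Of 6 tested acid and bicarbonate transport genes, 2 rose and 2 fell. The bicarbonate importer SLC4A7 fell from 62.8 ± 5.28 to 21.3 ± 0.896 CPM (adjusted p = 1.58e-10; corrected value -1.0), and the lactate carrier SLC16A1 from 15.7 ± 0.575 to 7.25 ± 1.22 CPM. The lactate carrier chaperone BSG (0.32) and the anion exchanger SLC4A2 (0.18) rose in the uncorrected fit but stood at -0.063 and -0.072 with the correction.

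In the VEGF family, 5 of 9 genes were tested. The VEGF coreceptor NRP1 fell from 30.4 ± 2.10 to 8.04 ± 0.982 CPM (-1.92 ± 0.10 SE, adjusted p = 4.59e-10; corrected value -1.58) and VEGFB rose from 91.5 ± 7.48 to 138 ± 7.78 CPM (adjusted p = 7.39e-07; corrected value 0.15). The receptors FLT1, KDR and FLT4 and the ligand VEGFD did not pass the filter. The FPKM ratio of VEGFA to VEGFB was 0.0694 ± 0.00623 in parental and 0.0442 ± 0.00217 in trastuzumab libraries (SD, n = 3), without overlap (exact permutation p = 0.1, 0.125 adjusted). Of the adrenomedullin family, 3 of 9 genes were tested. The related peptide ADM2 fell from 9.09 ± 1.48 to 6.48 ± 0.838 CPM (adjusted p = 0.0109), a call that ended without parental replicate 1 (0.0874) or trastuzumab replicate 3 (0.0556). The adrenomedullin receptor CALCRL held at most 0.0541 CPM.

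Among 11 tested mitophagy receptors and adaptors, the test called 5 higher and 3 lower and left 3 uncalled (median 0.17, and 0.11 with the correction). BNIP3L (NIX), the close relative of BNIP3, fell from 12.3 ± 0.563 to 6.38 ± 0.547 CPM (adjusted p = 4.91e-06). The mitochondrial kinase PINK1 rose from 57.8 ± 1.92 to 107 ± 4.69 CPM (adjusted p = 1.58e-09), the adaptor SQSTM1 from 557 ± 23.0 to 896 ± 33.9 CPM and OPTN from 14.7 ± 1.07 to 21.8 ± 0.059 CPM. PINK1 overlaps PINK1-AS on the other strand, which stood at 17.8 and 29.1 CPM. The FPKM ratio of BNIP3L to BNIP3 was 0.368 ± 0.0190 in parental and 0.195 ± 0.0193 in trastuzumab libraries (exact permutation p = 0.1, 0.125 adjusted). In the NDRG family, NDRG2 rose from 6.76 ± 0.766 to 11.9 ± 0.382 CPM (adjusted p = 3.11e-05), NDRG3 fell from 259 ± 7.08 to 203 ± 4.29 CPM (adjusted p = 3.6e-06) and NDRG4 did not pass.

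None of the 7 other ANGPTL genes passed the filter, and lipoprotein lipase itself (LPL) held 0 counts in all 6 libraries. Of 9 tested genes of the lipoprotein lipase axis and PPAR list, 4 rose and 2 fell (median 0.11, and 0.0089 with the correction). PDK4, which restrains pyruvate oxidation, rose from 1.75 ± 0.725 to 3.78 ± 0.802 CPM (adjusted p = 0.00439), and the PPAR partner RXRA from 151 ± 5.27 to 217 ± 1.62 CPM (adjusted p = 7.89e-08). PPARG fell from 13.9 ± 0.987 to 7.76 ± 1.18 CPM (adjusted p = 2.99e-05).

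Among 11 collagen hydroxylation genes, the test called 5 higher and 2 lower and left 4 uncalled (median 0.21). The corrected fit called 3 higher and 4 lower (median 0.17). P4HA2, the alternative catalytic subunit to P4HA1, rose from 23.1 ± 1.09 to 36.8 ± 1.13 CPM (adjusted p = 9.29e-07; corrected value 0.76), and the FPKM ratio of P4HA1 to P4HA2 was 15.9 ± 1.58 in parental and 8.71 ± 0.347 in trastuzumab libraries, without overlap (exact permutation p = 0.1, 0.125 adjusted). The prolyl 3-hydroxylase P3H2 fell from 12.8 ± 2.84 to 6.92 ± 0.845 CPM (adjusted p = 0.000135). Among lysyl hydroxylases, PLOD2 fell (-0.40) and PLOD3 rose (0.31) in the uncorrected fit, but with the correction PLOD2 was called higher (0.17, adjusted p = 0.047) and PLOD3 stood at -0.016.

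**Figure D4:**
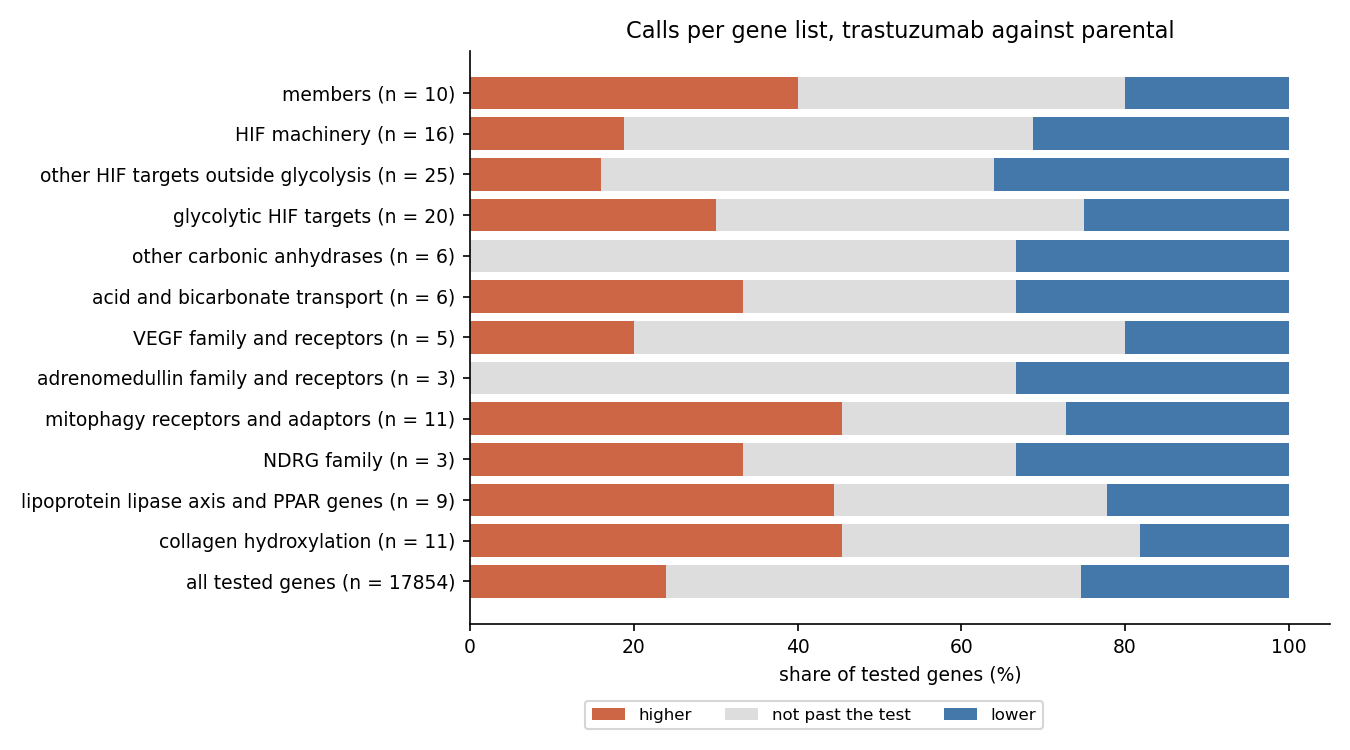
Share of tested genes (x axis, %) called higher (orange), lower (blue) or not past the test (grey) in each gene list, with the number of tested genes, and in all 17854 tested genes at the bottom. The 10 hypoxia response genes hold 4 higher and 2 lower calls, and the other HIF targets outside glycolysis 4 higher and 9 lower of 25.

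The profiles most like that of ANGPTL4 and that of EGLN1, the members with the largest called rise and fall, were sought among 11383 protein-coding genes by the root mean square difference of centred log2 CPM over the 6 libraries. For ANGPTL4 they were the integrin subunit ITGB2 (0.102), EVA1B (0.102) and the receptor of granulocyte colony-stimulating factor CSF3R (0.12), with log2 fold changes of 1.96, 2.07 and 1.99. For EGLN1 they were the nuclear lamina gene LMNB1 (0.0142), LDHA, the lactate dehydrogenase subunit and a HIF target (0.0153), and UBL3 (0.0173), with log2 fold changes of -0.24, -0.22 and -0.23. With the correction LMNB1 stood at -0.39, LDHA at 0.016 and UBL3 at 0.061. Profiles were chosen on the same 6 libraries, so uncorrected fold changes close to those of ANGPTL4 and EGLN1 follow from the search.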

How the data were processed

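For each library the authors deposited raw gene counts (whole numbers, no normalization, 60612 Ensembl identifiers) and FPKM values, which the authors scaled by gene length and depth, for 33686 of them. The submitters' processing notes name STAR 2.4.2a and hg38. For the counting program, strand setting and annotation: not given in the sources used here. Without a known strand setting, overlapping and antisense genes cannot be told apart. Of the 10 members 3 overlap another tested gene (CA9, EGLN3, ANGPTL4), and of the 52 other named genes 17 do.

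Symbols came from a gene name reference; positions, lengths and transcript GC content from GENCODE 29 (GRCh38). Counts of all 6 libraries were fitted in R 4.3.3 with a robust quasi-likelihood F test (edgeR 4.0.16) without covariates, after filterByExpr and TMM scaling, with Benjamini-Hochberg adjustment over 17854 genes. The SE is the log2 fold change divided by the square root of F. A count of 0 allows up to 0.0372 to 0.0428 CPM (3 counts; counting error only). The corrected fit used spline offsets (5 degrees of freedom) for GC content and exonic length. Limma 3.58.1 and DESeq2 1.42.0 served as alternatives.

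Within groups, library pairs differed by more than sampling noise (chi-square per degree of freedom 20.0 to 30.9), so none was counted as a library deposited more than once. This comparison with counting noise alone cannot tell separate cultures from repeat libraries of 1 culture. The members and the 12 pathway and 4 marker lists were chosen with earlier results of these data known. Named genes are all members, all tested HIF machinery genes, per list the 4 called genes that changed most (1 CPM or more in a group), and 3 nearest profiles for 2 members, except 1 gene that is not reported here; CDH5, CD68, PECAM1, CD3E, PTPRC, SPTSSA, RAB4B-EGLN2, PINK1-AS, LPL and CALCRL, and genes named only as untested or not past the test, were added after their values were seen.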

Additional observations from a re-analysis of the deposited data

How the results depend on the processing

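The number of members called was 6, and 5 to 8 over 21 alternatives; all genes called ranged from 6584 to 8895 and other list genes from 48 to 67 (61 as reported), and 7 promoter windows held a core with or without the 50 bases after the start. Of the members' own values under the alternatives, 180 kept direction and side of the threshold, 14 passed in addition, 5 no longer passed and 9 turned. ANGPTL4, EGLN3 and NDRG1 were called higher under all 21, and CA12 under all but log2(FPKM + 0.1) (adjusted p = 0.0579). The genes that fell numbered 1 in place of 2 without parental replicate 1, without trastuzumab replicate 2 and in the corrected fit with a block. Same-numbered libraries deviated together in 2 of 3 pairs only (r = -0.0082, 0.269 and 0.437), and parental replicate 1 went best with trastuzumab replicate 2 (0.152), so the numbers were not taken to pair the samples; with the replicate block 6 members and 8653 genes were called, and 5 and 6584 with the block and correction.

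Log2 fold changes that turned, among the 10 members and the 52 other named genes, were these. Marker genes and genes added later are left out, KRT19 among them (-0.21 in the corrected fit). With correction for GC content and length, ADM was -0.012, EGLN1 0.038, P4HA1 0.077, EPAS1 -0.021, ELOB -0.15, BSG -0.063, SLC4A2 -0.072, PLOD2 0.17, PLOD3 -0.016, LDHA 0.016 and UBL3 0.061. With the replicate block added they were -0.010, 0.038, 0.077, -0.021, -0.15, -0.063, -0.072, 0.17, -0.014, 0.016 and 0.061. With GC content alone, P4HA1 was 0.16, EPAS1 -0.11, ELOB -0.066, BSG -0.050, SLC4A2 -0.18, PLOD2 0.12, PLOD3 -0.057 and UBL3 0.11; EPAS1 (adjusted p = 0.00967) and SLC4A2 (0.000302) were then called lower, as were CA9 (-0.94), VEGFA (-0.30) and BNIP3 (-0.16), RBX1 was called higher (0.27), and EGLN1 (-0.026), P4HTM (0.12), STC1 (-0.80) and LDHA (-0.010) no longer passed. With upper quartile scaling BNIP3 was 0.025, and with library totals alone VHL was -0.033, RBX1 -0.044 and HIF1AN -0.012. On log2(FPKM + 1), with and without a filter, EPAS1 was -0.0021, VHL -0.044, RBX1 -0.053 and HIF1AN -0.020, and on log2(FPKM + 0.1) they were -0.0021, -0.048, -0.056 and -0.024. Leaving out each library, VEGFA ranged from -0.095 to 0.032 and RBX1 from -0.042 to 0.073, being -0.016 without trastuzumab replicate 2. The cause was not tested. ADM passed with relative log expression scaling (adjusted p = 0.0499), upper quartile scaling (0.0286), a 1 CPM minimum (0.0388), limma-voom (0.0464) and both filtered FPKM fits (0.0172 and 0.016).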
